A study of Macaca mulatta with 6 samples.

Results

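The genes described here encode the proteasome, its regulators and its assembly chaperones. They are the 45 of 24941 gene symbols in the deposited table that begin with PSM, a letter from A to G and a number, and they hold 80 of its 44605 transcripts. The family was selected on the serum contrast of these same libraries, whose values were known when it was picked, so the treatment differences below are descriptions and no test of the family as a whole was made. The cells were RF/6A, an established rhesus macaque line described as choroidal endothelial, grown to confluence on porous culture inserts. The control group (3 libraries) received human serum at 50% that had been heat-inactivated, and the other group (3 libraries) received normal human serum at 50%, in both cases for 4 h. Polyadenylated RNA was sequenced. The labels name the normal serum group for the membrane attack complex, the pore that active complement inserts into cell membranes. No group had complement removed in another way, so active complement cannot be told apart from anything else that heating alters in serum. Nothing in the labels says that the libraries of a group came from separate cultures, so a p-value here reflects only how far these libraries scatter, and that scatter may be technical.

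The proteasome degrades proteins that carry ubiquitin chains. Its 20S core is a barrel of alpha rings, which gate the entrance, around beta rings, in which PSMB5, PSMB6 and PSMB7 hold the cutting sites. The 19S particle binds the ends of the barrel, where its PSMC ATPases unfold the substrate and its PSMD subunits recognise it and remove ubiquitin. In cells exposed to interferon, PSMB8, PSMB9 and PSMB10 can replace PSMB5, PSMB6 and PSMB7 to form the immunoproteasome, which favours peptides for antigen presentation. PSME proteins are other caps of the barrel, PSMF1 is an inhibitor, and PSMG chaperones help to build the ring of alpha subunits.

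Levels are FPKM, fragments scaled for transcript length and library depth, summed over the transcripts of a symbol. They are given with the SD over the 3 libraries of a group. Differences are log2 of FPKM + 1, normal minus heat-inactivated serum, with their standard error (SE). A gene was called when limma's adjusted p (Benjamini-Hochberg over the 11819 genes averaging 1 FPKM or more) was under 0.05. In this bulk measurement, fewer cells of a type and less RNA per cell cannot be told apart. Marker genes did not settle the identity of the line: 8 of 12 endothelial markers had a mean below 1 FPKM, CDH5 and ROBO4 among them at or near 0. The 12 summed to between 72.7 and 75.1 FPKM in control and between 87.9 and 101 in normal serum. ENG alone made up most of both sums, at 61.2 ± 0.309 FPKM in control and 74.2 ± 6.31 in normal serum. The 9 fibroblast and mural markers found summed to between 6867 and 7401 FPKM in control and between 3352 and 3521 in normal serum, with 8 of them lower and 1 higher. Leukocyte markers summed to between 14.4 and 19.01 FPKM in control and between 13.5 and 16.2 in normal serum, with PTPRC and CD3E below 1, and epithelial and pigment epithelial markers to between 6.43 and 7.55 and between 3.09 and 4.10. The part of these shifts in the proteasome values was not tested.

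Of the 45 genes, 43 passed the filter on low values. In normal serum 30 of the 43 rose and 2 fell, PSMB8 and PSMD10, while 11 were not called. Over all genes tested, 27.8% were called higher and 26.1% lower. The median difference was 0.35 for the 43 genes and 0.01 for all genes tested. Every normal serum library lay above every control library for 31 of the 43 genes (32.1% of all genes tested), and below for 3, PSMB8, PSMB9 and PSMD10 (30.5% of all genes tested). The ranges overlapped for 9. These counts carry the choice of the family and nothing is read from them. The changes were small: no member reached a difference of 1, and the ratios of mean FPKM of the 43 genes ran from 0.784 for PSMB9 to 1.62 for PSMC4.

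**Figure D1:**
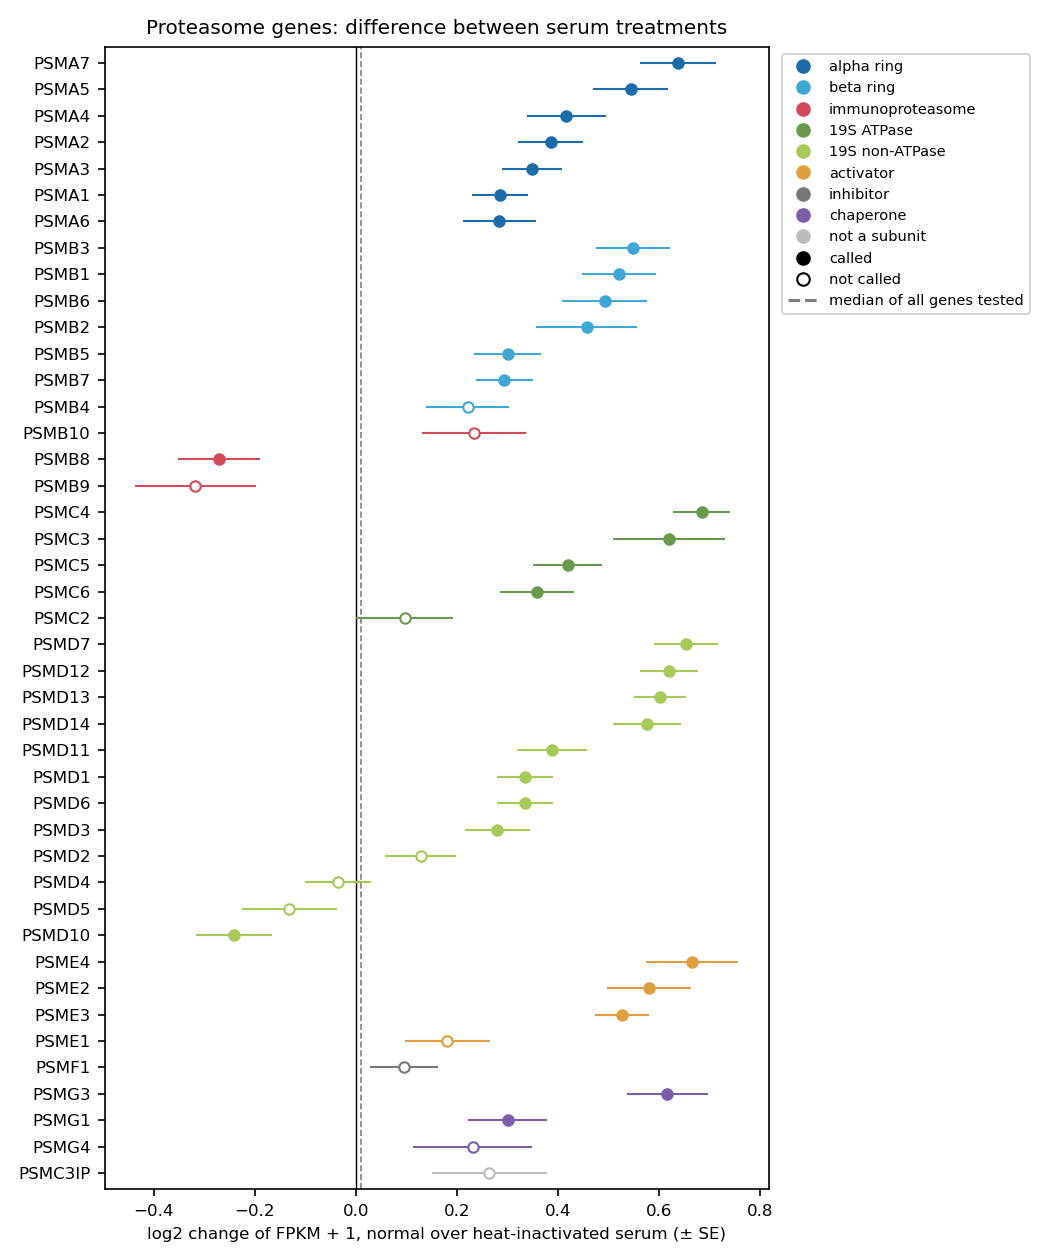
Difference in log2(FPKM + 1) between normal and heat-inactivated serum for the 43 proteasome genes tested, coloured by class, with bars of 1 SE and open points for genes not called. The alpha and beta ring genes lie between 0.22 and 0.64, all to the right of the all-gene median of 0.01, while PSMB8, PSMB9, PSMD4, PSMD5 and PSMD10 lie to the left of 0.

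The members were more abundant than most genes, with a median level of 82.7 FPKM against 13.9 for all genes tested. Level moved with the treatment difference across the transcriptome. Among genes of 50 FPKM or more, 47.5% were called higher and the median difference was 0.20. The 30 members at such levels had 25 called higher and a median of 0.40. Between 10 and 50 FPKM, 31.5% of all genes were called higher with a median of 0.05, and 5 of the 13 members there were, with a median of 0.23. Main transcripts were also shorter in the family, with a median of 1145 bases against 1812. The part of level and length in the differences was not tested. Total FPKM moved as well, from between 775915 and 780423 over transcripts of at least 300 bases in control to between 848315 and 891786 in normal serum. Over every transcript the totals overlapped, at 852828, 867794 and 1007949 in control and 1010695, 1016474 and 980877 in normal serum, with heat-inactivated serum replicate 3 apart from its group. Rescaling to equal totals over transcripts of at least 300 bases lowered the median difference to 0.18 for members and to -0.14 for all genes. It left 23 members called higher and 5 lower, PSMB8, PSMB9, PSMD4, PSMD5 and PSMD10. Rescaling to equal totals over every transcript gave 18 higher and 3 lower, PSMB8, PSMB9 and PSMD10. Over all genes, calls were higher in 51.6% of cases as deposited and in 33% and 34.7% under these scalings. The gap between the members' median and that of all genes was 0.34 as deposited and 0.32 and 0.33 under the rescalings, but 0.20 under quantile normalization, which left 22 members called higher and 3 lower.

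The replicate 1 libraries of both groups stood apart in a search for the depth behind low values. At the best setting found, 52.1% and 46.9% of their low values came out as a whole number of fragments (within 0.1), against 100% in the other 4 libraries. For normal serum replicate 1 that setting lay at the edge of the search, so a better one may have been missed. With replicates 2 and 3 alone, 30 members were called higher and 1, PSMB8, lower, with a median of 0.34. Adding a term for the replicate 1 libraries to the fit, 34 were called higher and 3 lower.

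Summed over its 14 genes, the 20S core stood at 2464, 2452 and 2476 FPKM in the control libraries and at 3427, 3442 and 3027 in normal serum. The control libraries were nearly level, and the normal serum libraries were all higher, with replicate 3 the lowest. The ratio of the means was 1.34 ± 0.0956. The 19S genes summed to 1375 ± 57.5 FPKM in control and 1798 ± 67.1 in normal serum, a ratio of 1.31 ± 0.0733. PSMD13 took a large share of that sum through a model of only 267 bases, and without it the ratio was 1.26. The activators had a ratio of 1.33 ± 0.0787 and the chaperones one of 1.30 ± 0.0866. The immunoproteasome genes did not follow: their sum was 50.6, 45.7 and 49.3 FPKM in control and 46.8, 50.9 and 41.7 in normal serum, so that the groups overlapped (ratio 0.958 ± 0.108). The 20S sum divided by the 19S sum was 1.79 ± 0.0751 in control and 1.83 ± 0.108 in normal serum, with overlapping ranges. With libraries rescaled to equal totals over transcripts of at least 300 bases, the ratios were 1.19 for the 20S core, 1.16 for the 19S particle, 1.18 for the activators, 1.15 for the chaperones and 0.849 for the immunoproteasome.

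**Figure D2:**
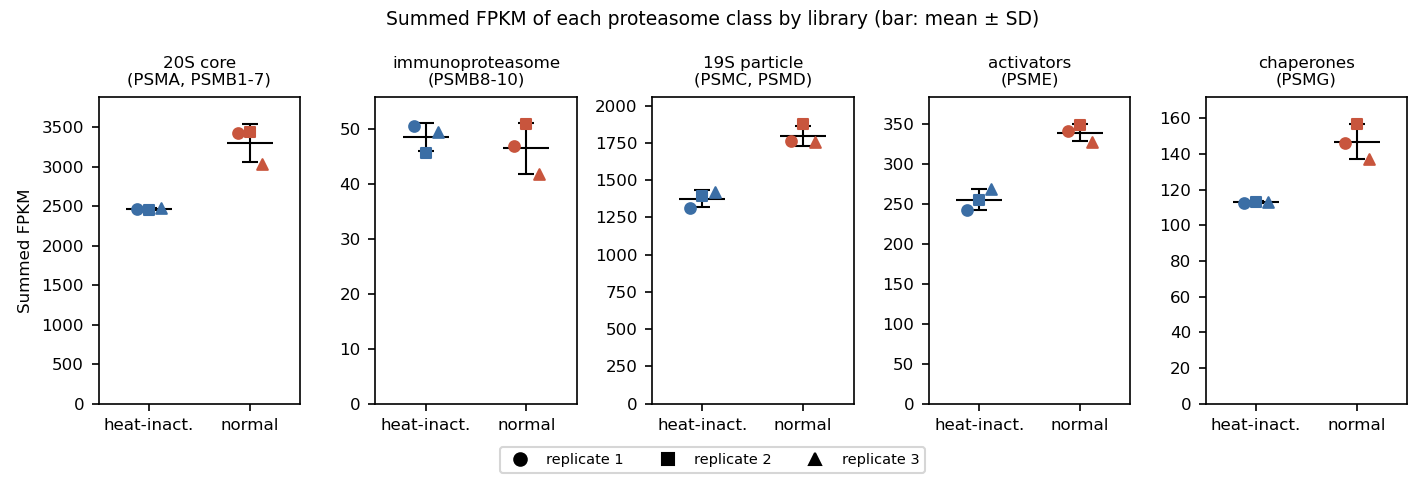
Summed FPKM of each class in every library, with the mean ± SD of each group; marker shape gives the replicate number. In 4 classes all normal serum libraries lie above all control libraries, and for the immunoproteasome, at 41.7 to 50.9 FPKM, the groups overlap.

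All 7 alpha ring genes rose, by 0.28 to 0.64 (median 0.38). PSMA7, the most abundant of them, stood at 357, 357 and 358 FPKM in control and at 585, 590 and 498 in normal serum. The groups were far apart, and PSMA7 had the largest ratio of the ring, 1.56 (difference 0.64 ± 0.08 SE, limma adjusted p = 4.1e-04). PSMA1 had the smallest ratio, 1.22. Its levels were 85.9, 87.7 and 92.0 FPKM in control and 107, 112 and 105 in normal serum (0.29 ± 0.06 SE, limma adjusted p = 0.0041). The groups did not overlap, but the call for PSMA1 ended when libraries were rescaled to equal total FPKM (0.14, adjusted p = 0.198) and under quantile normalization (0.10, adjusted p = 0.143). Rescaling to equal total FPKM also ended the calls of PSMA2 (adjusted p = 0.076), PSMA3 (0.109) and PSMA6 (0.252), and quantile normalization those of PSMA4 (0.12, adjusted p = 0.152) and PSMA6 (0.07, adjusted p = 0.353), while PSMA5 and PSMA7 were called higher in every alternative.

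Of the 7 constitutive beta ring genes, 6 rose and PSMB4 was not called. PSMB3, a subunit with no cutting site, had the largest ratio of the ring, 1.47. Its levels were 161, 153 and 154 FPKM in control and 246, 233 and 207 in normal serum (0.55 ± 0.07 SE, limma adjusted p = 7.2e-04). PSMB4, also without a cutting site, had the smallest ratio, 1.17, with 394, 370 and 370 FPKM in control and 481, 451 and 393 in normal serum. Its groups overlapped by a narrow margin, between the highest control library and normal serum replicate 3 (0.22 ± 0.08 SE, limma adjusted p = 0.054). Without that library PSMB4 was called (0.30, adjusted p = 0.011). PSMB2 was not called under rescaling to equal total FPKM (0.31, adjusted p = 0.059). Normal serum replicate 3 was the lowest of its group for all 7 of these genes, for 12 of the 14 core genes and for 30 of the 43 members tested.

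The 3 constitutive catalytic genes rose. PSMB5, which holds the chymotrypsin-like site, stood at 165, 168 and 165 FPKM in control and at 208, 218 and 188 in normal serum (0.30 ± 0.07 SE, limma adjusted p = 0.0070). PSMB6, of the caspase-like site, stood at 208, 204 and 210 FPKM in control and at 318, 304 and 257 in normal serum (0.49 ± 0.08 SE, adjusted p = 0.0022). For both genes each normal serum library exceeded each control library. PSMB7, of the trypsin-like site, stood at 313, 311 and 307 FPKM in control and at 395, 385 and 362 in normal serum (0.29 ± 0.06 SE, adjusted p = 0.0035). These groups were apart as well. The calls of PSMB5 and PSMB7 ended under rescaling to equal total FPKM (0.16, adjusted p = 0.218, and 0.15, adjusted p = 0.225) and under quantile normalization (0.06, adjusted p = 0.358, and 0.05, adjusted p = 0.447). Among the alternatives, the call of PSMB6 ended under quantile normalization only (0.20, adjusted p = 0.053).

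Their inducible counterparts were far less abundant, and none of them was called higher. PSMB8, the counterpart of PSMB5, stood at 18.5, 16.8 and 17.6 FPKM in control and at 15.5, 14.9 and 13.03 in normal serum. Every normal serum library was below every control library, and PSMB8 was called lower (-0.27 ± 0.08 SE, limma adjusted p = 0.024). That call rested on single libraries: the adjusted p was 0.071 without heat-inactivated serum replicate 1, 0.063 without heat-inactivated serum replicate 3 and 0.063 without normal serum replicate 3. PSMB9, the counterpart of PSMB6, stood at 13.4, 10.9 and 10.3 FPKM in control and at 8.90, 10.2 and 8.04 in normal serum. Its groups were separated only narrowly and it was not called (-0.32 ± 0.12 SE, adjusted p = 0.055). PSMB9 was called lower in 8 of the 20 alternatives, among them without heat-inactivated serum replicate 3 (adjusted p = 0.047) and without normal serum replicate 2 (adjusted p = 0.038). Leaving out any other single library gave no call (adjusted p from 0.086 to 0.158). Replicates 2 and 3 alone gave none either (-0.21, adjusted p = 0.218). PSMB10, the counterpart of PSMB7, stood at 18.7, 17.9 and 21.5 FPKM in control and at 22.4, 25.9 and 20.6 in normal serum. The groups overlapped and PSMB10 was not called (0.23 ± 0.10 SE, adjusted p = 0.091).

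Within a library, ratios between genes do not depend on its scaling. PSMB8, PSMB9 and PSMB10 together made up 6.87%, 6.27% and 6.75% of the FPKM of PSMB5 to PSMB10 in control and 4.83%, 5.31% and 4.91% in normal serum. The groups did not overlap, and the group means differed by -1.61 percentage points. When any 1 library was left out the difference stayed between -1.79 and -1.49 percentage points. Most of the gap lay in 2 of the 3 pairs. PSMB8 was 10.6% ± 0.596 of PSMB5 in control and 7.06% ± 0.326 in normal serum. PSMB9 was 5.57% ± 0.796 of PSMB6 in control and 3.09% ± 0.279 in normal serum. The groups were separate for both of these pairs. PSMB10 was 6.25% ± 0.655 of PSMB7 in control and 6.03% ± 0.592 in normal serum, with overlapping ranges. The summed FPKM of the 3 inducible genes overlapped between the groups (ratio 0.958 ± 0.108), while PSMB5, PSMB6 and PSMB7 rose. The lower share alone therefore does not show a loss of inducible RNA. PSMB11, the counterpart that is used in the thymic cortex, was listed at 0.136 FPKM or less in every library and was not tested.

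**Figure D3:**
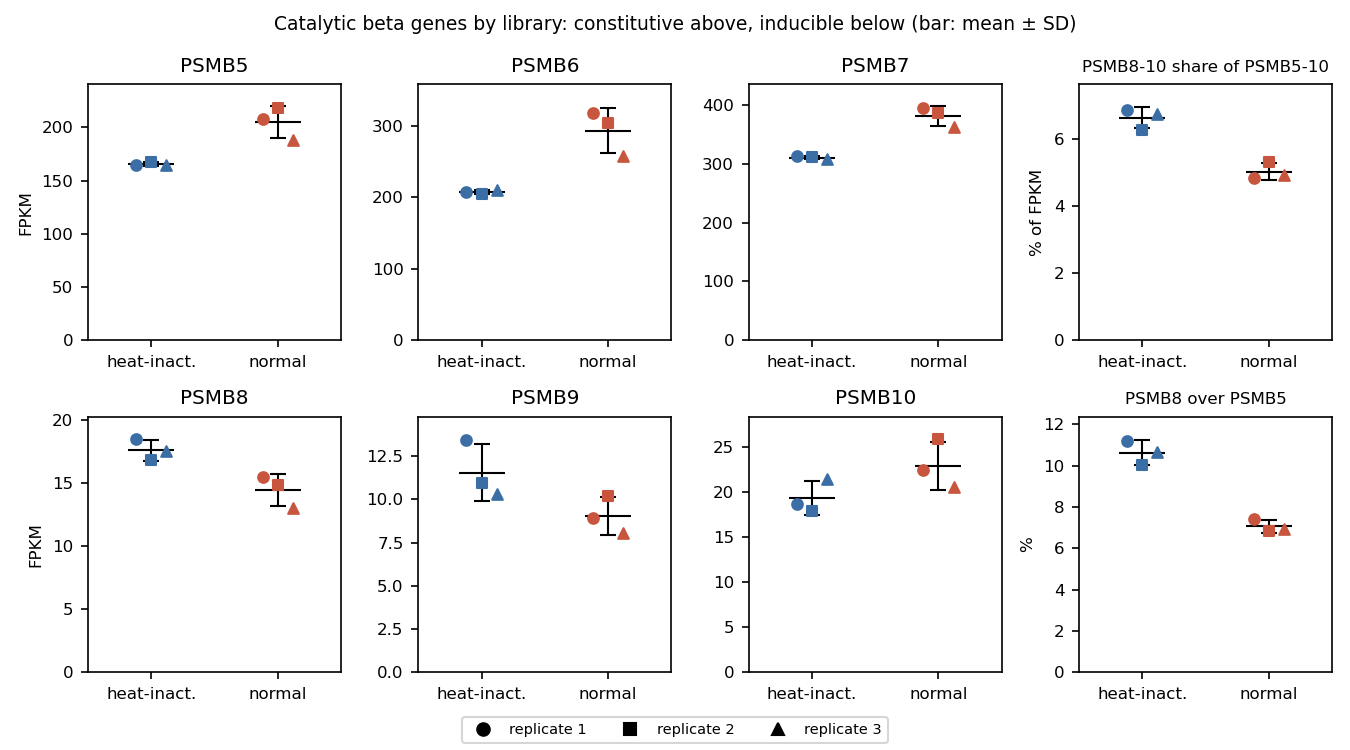
FPKM of the 3 constitutive catalytic genes (upper row) and the 3 inducible ones (lower row) in every library, with the mean ± SD; the right panels give within-library percentages. PSMB5, PSMB6 and PSMB7 are higher in normal serum, PSMB8 is lower, PSMB10 overlaps, and the inducible share is 6.27% to 6.87% in control against 4.83% to 5.31% in normal serum.

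In the 19S particle, 18 symbols matched and 17 could be tested. Of these, 12 rose, 1 fell and 4 were not called. Among the ATPases, PSMC3, PSMC4, PSMC5 and PSMC6 rose and PSMC2 was not called. PSMC4 had the largest ratio of the 43 genes tested, 1.62, with 70.3, 73.8 and 72.9 FPKM in control and 113, 122 and 115 in normal serum (0.68 ± 0.06 SE, limma adjusted p = 8.3e-05). The groups were far apart, and PSMC4 was called higher in all 20 alternatives. PSMC2 stood at 62.1, 70.6 and 78.2 FPKM in control and at 71.9, 81.3 and 71.9 in normal serum, read from a model of only 591 bases. These ranges overlapped (0.10 ± 0.10 SE, adjusted p = 0.423). PSMC6 sums rows on chromosomes 7 and 10, so near-identical copies may be merged in it, and it was not called under rescaling to equal total FPKM (adjusted p = 0.098). PSMC1 and PSMD9 had no row under their symbols. PSMC3IP, which the symbol rule also takes in, is a recombination factor and no proteasome subunit, and was not called (0.26 ± 0.11 SE, adjusted p = 0.086).

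Among the PSMD genes of the mature particle, 8 of 10 tested rose. PSMD7, the partner of the deubiquitinase PSMD14, had the largest ratio, 1.58. It stood at 62.5, 62.9 and 66.8 FPKM in control and at 95.8, 107 and 101 in normal serum (0.65 ± 0.06 SE, limma adjusted p = 1.8e-04). PSMD14, which cuts ubiquitin chains off the substrate, also rose, from 42.4 ± 1.63 to 63.8 ± 4.11 FPKM (0.58 ± 0.07 SE). Lid subunits PSMD11 and PSMD12 rose as well, by 0.39 and 0.62. PSMD2, a scaffold of the base, and PSMD4, a ubiquitin receptor, were not called. Both are abundant, at 160 ± 10.9 and 147 ± 7.72 FPKM in control and 175 ± 8.50 and 143 ± 6.95 in normal serum. PSMD4 was called lower under quantile normalization (-0.26, adjusted p = 0.0065) and under rescaling to equal totals over transcripts of at least 300 bases (-0.21, adjusted p = 0.032). PSMD8 was listed at 0 in every library, on a model that the table places outside the numbered chromosomes. With libraries rescaled to equal total FPKM, PSMD1 (adjusted p = 0.104), PSMD3 (0.265) and PSMD6 (0.092) were not called.

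PSMD5 and PSMD10 bear PSMD symbols but are chaperones that help to assemble the ATPase ring and leave before the particle is finished. Neither rose. PSMD10, also known as gankyrin, stood at 12.5, 12.7 and 12.6 FPKM in control and at 10.03, 11.5 and 10.001 in normal serum. Its groups did not overlap and it was called lower (-0.24 ± 0.07 SE, limma adjusted p = 0.028). The call ended without any one of 5 of the 6 libraries: the adjusted p was 0.057 without heat-inactivated serum replicate 1, 0.078 without replicate 2 and 0.071 without replicate 3 of that group. It was 0.077 without normal serum replicate 1 and 0.080 without normal serum replicate 3. The call also ended with replicates 2 and 3 alone (adjusted p = 0.106) and with the highest transcript per gene (adjusted p = 0.052). PSMD5 stood at 15.2 ± 1.58 FPKM in control and 13.8 ± 0.969 in normal serum (-0.13 ± 0.09 SE, adjusted p = 0.266). The smallest fragment numbers behind these genes in the 4 libraries whose depth could be read were 233 for PSMD10 and 159 for PSMD5, against 82 for PSMB9 and 206 for PSMB8.

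**Figure D4:**
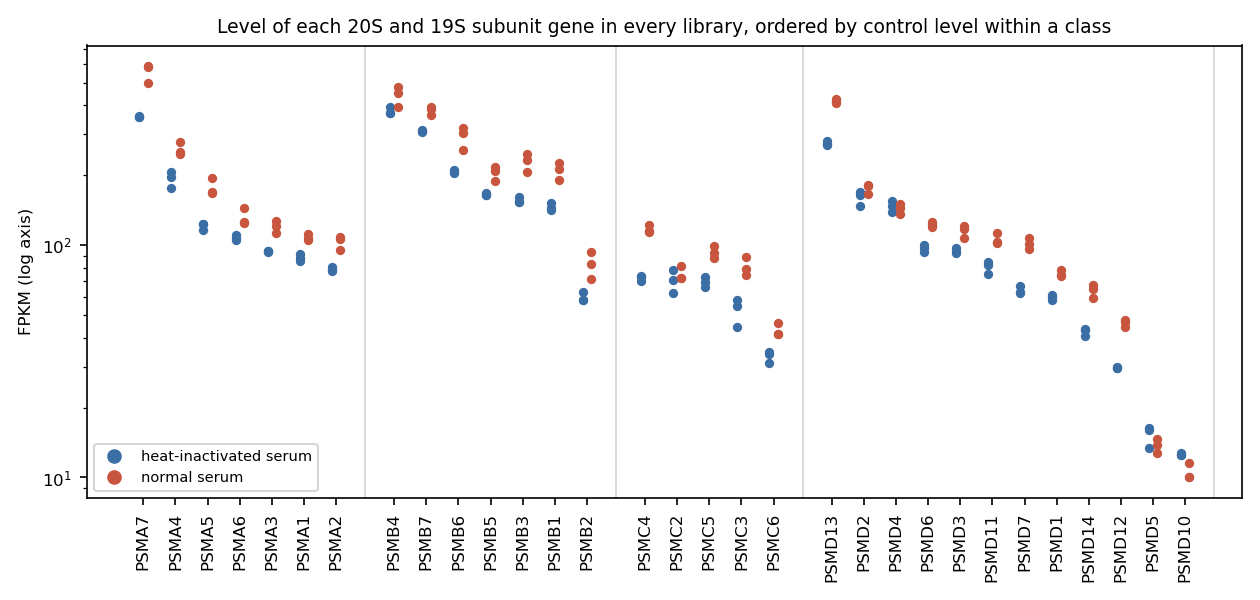
FPKM (log axis) of each 20S and 19S gene in every library, ordered by control level within alpha ring, beta ring, ATPase and non-ATPase genes. Most genes are higher in normal serum, PSMB4, PSMC2, PSMD2, PSMD4 and PSMD5 overlap, and PSMD10 at the right end is lower.

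Subunits that are present in equal number in the particle did not have equal RNA levels. This comparison uses the control libraries and not the serum contrast. In the 20S core, mean control levels ran from 59.6 ± 3.04 FPKM for PSMB2 to 378 ± 13.6 for PSMB4, a span of 6.34-fold, with a coefficient of variation over the 14 genes of 58.8%. PSMB4, PSMA7 and PSMB7 came first, followed by PSMB6 and PSMA4, then PSMB5, PSMB3, PSMB1, PSMA5, PSMA6, PSMA3, PSMA1, PSMA2 and PSMB2. In that order 1 of the 13 pairs of neighbours, PSMB6 and PSMA4, had overlapping control ranges. The coefficient of variation was 59.8% in normal serum, and PSMA7, at 558 ± 51.7 FPKM, then stood above PSMB4, at 442 ± 44.6. Those ranges did not overlap. The ATPases lay closer together, from 33.3 ± 1.86 FPKM for PSMC6 to 72.3 ± 1.81 for PSMC4, a span of 2.17-fold, and PSMC4, PSMC2 and PSMC5 could not be ordered beyond their spread. The assembly factors PSMD5 and PSMD10 were the lowest PSMD genes detected. These levels depend on the transcript models, and the part of short models in them was not tested.

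The activators differed among themselves. PSME2, PSME3 and PSME4 rose and PSME1 was not called. PSME4, a large single-chain cap known as PA200, had the largest ratio, 1.60, with 34.5, 28.6 and 32.4 FPKM in control and 55.9, 47.6 and 49.8 in normal serum (0.66 ± 0.09 SE, limma adjusted p = 8.0e-04). The groups were well apart, but most of the PSME4 rise lay in a model of 1395 bases, described below. PSME1 had the smallest ratio of the activators, 1.13, with 112, 125 and 134 FPKM in control and 132, 150 and 139 in normal serum. Its groups overlapped (0.18 ± 0.08 SE, adjusted p = 0.105). PSME1 and PSME2 are the partners of the interferon-inducible PA28 cap, and they did not move alike. PSME2 stood at 57.2 ± 2.99 FPKM in control and 86.1 ± 8.08 in normal serum. PSME1 over PSME2 was 2.07, 2.08 and 2.33 in control and 1.43, 1.67 and 1.80 in normal serum, without overlap. PSME3, the nuclear PA28 gamma, rose by 0.53 ± 0.05 SE. The inhibitor PSMF1 stood at 34.5, 33.3 and 34.6 FPKM in control and at 39.4, 35.9 and 34.4 in normal serum, with overlapping ranges (0.10 ± 0.07 SE, adjusted p = 0.267).

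The chaperones of the alpha ring also rose in part. PSMG3 had the largest ratio, 1.55, with 27.7, 31.5 and 32.2 FPKM in control and 45.7, 50.6 and 45.2 in normal serum (0.62 ± 0.08 SE, limma adjusted p = 6.3e-04). The groups were apart. PSMG4, which works with PSMG3, stood at 42.9, 40.6 and 33.5 FPKM in control and at 49.3, 48.6 and 39.8 in normal serum, on models of 392 bases or fewer. The groups overlapped and PSMG4 was not called (0.23 ± 0.12 SE, adjusted p = 0.135). PSMG1 rose from 43.5 ± 3.47 to 53.8 ± 3.37 FPKM (0.30 ± 0.08 SE, adjusted p = 0.014). When replicate 2 of either group was left out, PSMG1 was no longer called (adjusted p = 0.051 in both cases). Its call also ended with equal total FPKM (0.16, adjusted p = 0.162), with equal totals over transcripts of at least 300 bases (0.13, adjusted p = 0.185) and under quantile normalization (0.14, adjusted p = 0.128). PSMG2 had no row under its symbol. A row of 795 bases described only as proteasome assembly chaperone 2 read 18.6, 20.3 and 18.0 FPKM in control. It read 28.5, 20.7 and 21.4 in normal serum, where replicate 1 alone stood high. A row of 1053 bases with that description read 2.42, 3.16 and 3.16 FPKM in control. In normal serum that row read 3.35, 2.45 and 2.92, with overlapping ranges.

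For some members the transcript models differed by unequal amounts. The 1395-base model of PSME4 read 15.0 ± 0.948 FPKM in control and 32.2 ± 4.12 in normal serum, a ratio of 2.15. The 5856-base model of PSME4 read 14.8 ± 0.529 and 17.4 ± 0.596, a ratio of 1.18. The short model thus held 47.1% of the gene's FPKM in control and 63.0% in normal serum. In the authors' deposited table, the short model had a log2 fold change of 1.10 with q = 0.0017 and the long one 0.24 with q = 0.207. The means of the 2 main PSMD1 models lay in opposite directions, which was not tested. Its 2862-base model read 44.3 ± 2.61 FPKM in control and 62.1 ± 1.72 in normal serum, and its 2700-base model 15.2 ± 1.26 and 13.1 ± 1.12. For PSMA4, the minor 975-base model had a ratio of 2.60 and the main 1177-base model one of 1.28. How fragments shared by models are divided is an estimate of the authors' software.

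**Figure D5:**
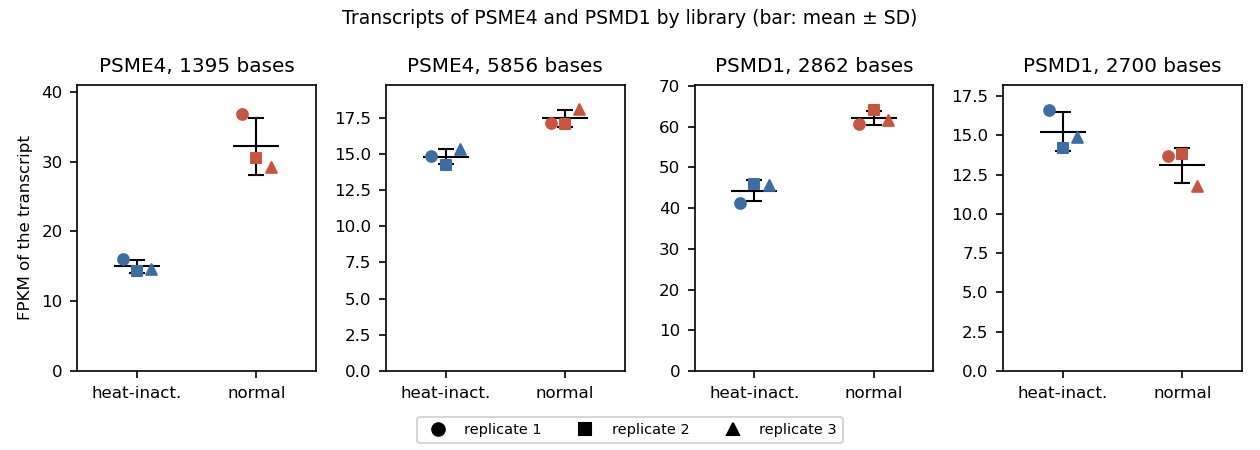
FPKM of the main transcript models of PSME4 and PSMD1 in every library, with the mean ± SD of each group. The 1395-base model of PSME4 goes from 15.0 to 32.2 FPKM and the 5856-base model from 14.8 to 17.4, while the PSMD1 model of 2862 bases is higher and that of 2700 bases lower in normal serum.

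In the authors' deposited table, 65 of the 80 transcripts had been tested. Of those, 32 had q under 0.05 and were higher in normal serum. Another 3, of PSMB8, PSMB9 and PSMD10, had q under 0.05 and were lower, and 0 transcripts carried all of the authors' marks of passing. The share of all transcripts that passed in the authors' test is not given here, so nothing is read from these counts. That table gave q = 0.016 for PSMB8 (log2 fold change -0.28), q = 0.016 for PSMB9 (-0.35) and q = 0.035 for PSMB10 (0.25), so PSMB9 and PSMB10 passed 0.05 there and not in the gene test above. It gave q = 0.110 for PSMB4.

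Other proteasome components were read from a list of 10 genes, of which 3, ADRM1, POMP and SHFM1, rose (27.8% of all genes tested were called higher), 1 fell and 6 were not called. ADRM1, a ubiquitin receptor of the 19S particle, rose from 140 ± 1.71 to 223 ± 19.3 FPKM (0.67 ± 0.07 SE, limma adjusted p = 2.7e-04). POMP, the maturation factor of the 20S core, rose from 52.2 ± 3.48 to 76.2 ± 4.49 (0.54 ± 0.07 SE). PAAF1, which binds the ATPases of free 19S, fell from 19.9 ± 1.86 to 13.4 ± 1.07 (-0.54 ± 0.09 SE, adjusted p = 0.0022). The median difference of the list was 0.18.

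Genes that control proteasome transcription moved in both directions, with 7 of 13 higher (27.8% of all genes tested), 2 lower (NFE2L1 and NFE2L3, against 26.1%) and a median difference of 0.29. NFE2L1, the transcription factor known for raising proteasome genes when proteasomes are impaired, fell from 141 ± 10.1 to 75.4 ± 4.26 FPKM (-0.89 ± 0.07 SE, limma adjusted p = 8.4e-05). MAFF, a small partner protein of the NFE2L factors, rose from 21.8 ± 4.09 to 68.4 ± 2.55 (1.63 ± 0.13 SE, adjusted p = 6.9e-05). The ATPase VCP, which extracts ubiquitinated proteins and the NFE2L1 protein from membranes, stood at 108, 120 and 122 FPKM in control and at 170, 185 and 169 in normal serum and rose (0.58 ± 0.07 SE). RNA levels say nothing of the processing of the NFE2L1 protein. In the list of ubiquitin and shuttle genes, 4 of 11 tested rose (27.8% of all genes tested did) and 1, RAD23B, fell, with a median of 0.11. UFD1L and NPLOC4, the cofactors of VCP, rose by 0.81 and 0.51, and UBA1, the main ubiquitin-activating enzyme, by 0.42.

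The genes that work beside the immunoproteasome were lower more than higher. In the antigen processing list, 5 of 11 fell (26.1% of all genes tested were called lower), TAP1, TAPBP, NLRC5, B2M and ERAP1, and 2 rose, the endoplasmic reticulum proteins CALR and PDIA3, with a median of -0.20. TAP1, a peptide transporter subunit, fell from 8.20 ± 0.229 to 5.89 ± 0.632 FPKM (-0.42 ± 0.09 SE, limma adjusted p = 0.0052). In the RefSeq gene order of assembly T2T-MMU8v2.0, TAP1 lies between PSMB9 and PSMB8, with TAP2 next, which was not called. TAPBP, which bridges TAP and class I molecules, fell from 65.3 ± 4.58 to 47.7 ± 4.29. NLRC5, a transactivator of class I genes, fell from 3.80 ± 0.497 to 1.81 ± 0.0897 (-0.76 ± 0.11 SE). Of the 13 interferon signalling genes, 7 fell (26.1% of all genes tested) and 0 rose (27.8% of all genes tested), with a median of -0.38. SOCS1, an inhibitor of this signalling, was among the 7 and fell by 1.24, so the count gives no direction for the signalling. STAT2 fell by 1.17, IFNGR2 by 0.94 and IFNAR1 by 1.23, while IRF1, a known activator of PSMB9, was not called (0.22 ± 0.12 SE). Whether the levels of these genes bear on PSMB8 and PSMB9 was not tested.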

How the data were processed

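Polyadenylated RNA of 3 control and 3 normal serum libraries was compared. The submitters' processing notes name Cufflinks 2.1.1, Cuffdiff 2.1.1 and TopHat2 2.0.7. For the genome build, none is given in the sources used here. The authors deposited FPKM per transcript and library, with a q-value, p-value and log2 fold change of their own for each. The members and lists were chosen with earlier results of these data known. FPKM were summed per symbol as deposited. For genes averaging 1 FPKM or more, log2(FPKM + 1) was fitted with limma 3.58.1 in R 4.3.3 (trended empirical Bayes, two-sided, Benjamini-Hochberg); this scale understates changes of low genes. Tested on simulated data of 11819 genes, 200 of them changed, the fit recovered 20.4% of 1.25-fold, 79.2% of 1.5-fold and 98.4% of 2-fold changes. In the real comparison 54% of genes were called, so the adjustment of p was stricter in the simulation. These shares therefore do not give the sensitivity of the real comparison. Named genes are the 6 catalytic genes, the highest and lowest ratio of each class, members called lower, and members not called. Up to 3 called genes per list were named by adjusted p. All other called members named, other called genes of the lists, TAP2, IRF1 and the transcripts were chosen after their values were seen. A few list genes are not reported here. Depth, read from the steps of low values (all whole within 0.1 fragments), was 14200000 to 17350000 fragments in replicates 2 and 3; the replicate 1 libraries, with 52.1% and 46.9% whole, gave none. Alternatives varied pseudocount, filter, scaling, variance model, transcript choice and libraries; 1 scaling was chosen after seeing the data.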

Additional observations from a re-analysis of the deposited data

How the results depend on the processing

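Of 129 alternative values of the counts, the median, the class ratios and the immunoproteasome share, 108 kept their direction and size. No called value changed sign. Size was judged within a tolerance, a set fold for counts and the spread over libraries otherwise. Some values could not move: the robust variance, block and replicate 1 fits leave the median at 0.35. Leaving out transcripts under 300 bases likewise left the share at -1.61. Quantile normalization was not applied to the class ratios or the share. The 108 of 129 is therefore no measure of robustness. The median difference of 0.35 was 0.21 with libraries rescaled to the same total FPKM, 0.18 with the total taken over transcripts of at least 300 bases (chosen after seeing the data) and 0.18 under quantile normalization. The count of genes called higher went from 30 to 18 under the first of these. The count called lower, 2, was 5 under the second, 1 with the highest transcript per gene, 1 with replicates 2 and 3 alone, and 0 to 3 when 1 library was left out. Under the first and second rescaling the ratio was 1.21 and 1.19 for the 20S core, 1.18 and 1.16 for the 19S particle, 1.20 and 1.18 for the activators and 1.17 and 1.15 for the chaperones, and 0.849 for the immunoproteasome under the second. Over the main fit and all 20 alternatives, 16 members were called higher in every fit that tested them, and 0 were called lower in every one. PSMD13, among the 16, has a single model of 267 bases. It was not tested when transcripts under 300 bases were left out. Leaving 1 library out gave 29 to 31 genes called higher. The fit with a replicate block called 33 higher and 3 lower, and PSMB4, PSMB9, PSMC3IP and PSMG4 gained a call in it. Across genes, the deviations of same-numbered libraries from their group means correlated with Pearson r of 0.19, 0.03 and 0.01, and not every library correlated best with its own number, so the numbers were not taken to pair the libraries. The replicate 1 libraries had the highest of these values and also stood apart in the depth search described above. PSMB4, PSMC2, PSME1 and PSMF1, not called as deposited, took values down to -0.07, -0.10, -0.04 and -0.07 under some scaling, so no direction is given for them. Depth limits the low genes most, with 82 to 106 fragments behind PSMB9 in replicates 2 and 3.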
